A study of Homo sapiens with 6 samples.

Results

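The genes that make, remodel or supply the mitochondrial lipid cardiolipin were followed in U2OS cells, a human osteosarcoma line, after depletion of the zinc finger transcription factor E4F1. They are TAMM41, CDS1, CDS2, PGS1, PTPMT1, CRLS1, TAFAZZIN, LCLAT1, PRELID1 and TRIAP1, 10 of the 58219 genes in the count tables. The list follows the pathway, but it was drawn up with the results of this comparison known, so it counts as chosen by the measured difference between E4F1 shRNA and control libraries. The values below for that difference describe the 10 genes and support nothing beyond them. One group received a scramble shRNA (control) and the other an shRNA against E4F1, with 3 libraries in each. All cells were grown in DMEM with 10% FBS, exposed to the shRNA vector for 24 h, selected with puromycin for 48 h and harvested at 72 h. Both groups thus share infection and selection, and each library comes from a pool of cells, not a clone. The sources used here do not say how many different hairpins against E4F1 were used, so effects of a hairpin and of E4F1 loss cannot be told apart.

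Cardiolipin is a phospholipid with 4 acyl chains that is found almost wholly in the inner mitochondrial membrane, where it supports the respiratory chain, carrier proteins and cristae. Its synthesis starts from phosphatidic acid, which the PRELID1 and TRIAP1 complex carries across the intermembrane space. TAMM41 turns it into CDP-diacylglycerol inside mitochondria, and CDS1 and CDS2 do so in the endoplasmic reticulum. PGS1 then makes phosphatidylglycerolphosphate, PTPMT1 removes its phosphate to give phosphatidylglycerol, and CRLS1, cardiolipin synthase, joins phosphatidylglycerol to CDP-diacylglycerol. New cardiolipin is remodelled on its acyl chains, mainly by the transacylase tafazzin (gene TAFAZZIN, TAZ in older annotation), whose loss causes Barth syndrome. LCLAT1, also called ALCAT1, is an acyltransferase of the endoplasmic reticulum that acts on lysocardiolipin.

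A control library held between 14947085 and 16284450 reads in genes, and a library with E4F1 shRNA between 16159934 and 16892139. E4F1 itself had 233, 286 and 297 reads in control and 51, 53 and 41 reads in E4F1 shRNA libraries (log2 fold change -2.57, SE 0.14, edgeR adjusted p = 7.66e-10). Control library 2 came closest to the depleted ones on the first principal component, at -9.85, with controls 1 and 3 at -20.9 and -31.1 and the depleted libraries at 17.5 to 22.7. Markers of bone-forming and mesenchymal cells were present, with VIM, SPARC and COL1A1 above 1000 CPM (CPM are reads of a gene scaled to a common TMM-adjusted library size) in every library and COL1A2 under 1 CPM. The 7 markers summed to between 4744 and 4971 CPM in controls and between 4227 and 4386 CPM after depletion. The sum over 5 epithelial markers was 14.3 to 15.7 and 14.7 to 16.7 CPM, and over 5 endothelial markers 3.60 to 4.22 and 3.63 to 3.81 CPM. In bulk RNA, fewer cells that express a gene and less RNA of it per cell cannot be told apart.

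TAFAZZIN and CRLS1 fell and CDS1 rose, each by more than 2-fold, while PGS1 and LCLAT1 fell by less. The other 5 genes did not pass the threshold. "Rose" and "fell" stand here for an adjusted p-value under 0.05 in a fit over all 15765 genes tested (edgeR quasi-likelihood test), and all 10 genes passed the low-count filter. Thus 1 of 10 rose and 4 fell, where 14.4% of all genes rose, 14.4% fell and 28.9% did either. A change of at least 2-fold that passed the threshold was found for 3 of 10, against 1.48% of all genes. The 2 groups of libraries did not overlap for 7 of 10, against 41.8% of all genes, and overlapped for TAMM41, PRELID1 and TRIAP1. The median log2 fold change was -0.15 over the 10 genes and -0.0096 over all genes tested. Since the contrast took part in the choice of the genes, these shares are given side by side only. Over all genes, 2276 fell, which came to 1419, 1426 and 1503 without E4F1 shRNA library 1, E4F1 shRNA library 2 and control library 3. The 5 calls among cardiolipin genes held in each of these fits.

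**Figure D1:**
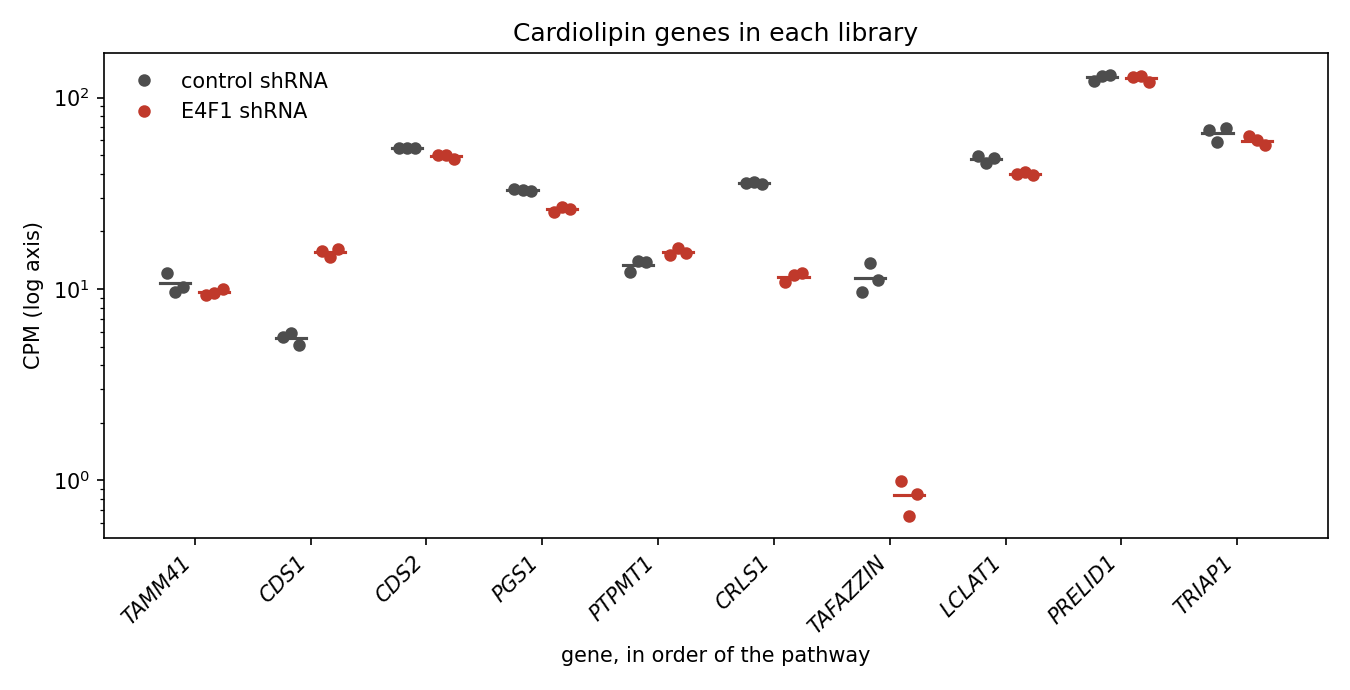
CPM of the 10 cardiolipin genes in each library on a log axis, with control shRNA in grey and E4F1 shRNA in red. Points are the 3 libraries of a group and bars their means. TAFAZZIN drops from a mean of 11.5 to 0.836 CPM, CRLS1 from 35.8 to 11.6 CPM, and CDS1 climbs from 5.53 to 15.6 CPM.

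The first step, CDP-diacylglycerol synthesis, changed in 1 of its 3 genes. CDS1 (ENSG00000163624.5, GRCh38 chromosome 4, 84582979 to 84651338, plus strand) had 5.62, 5.88 and 5.08 CPM in the control libraries and 15.8, 14.7 and 16.2 CPM in the E4F1 shRNA libraries. Every depleted library lay well above every control. The means were 5.53 ± 0.408 and 15.6 ± 0.767 CPM (SD, n = 3 each), 2.81-fold higher, with a log2 fold change of 1.49 (SE 0.11).

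Its paralogue CDS2 (ENSG00000101290.13, chromosome 20, 5126786 to 5197887, plus strand) had 54.8, 54.4 and 54.3 CPM in control and 50.1, 50.4 and 47.7 CPM in E4F1 shRNA libraries. These groups did not overlap, but the log2 fold change of -0.14 (SE 0.06) did not pass the threshold. TAMM41, the mitochondrial enzyme of this step (ENSG00000144559.10, chromosome 3, 11790442 to 11846919, minus strand), had 12.2, 9.65 and 10.3 CPM in control and 9.36, 9.52 and 9.95 CPM in E4F1 shRNA libraries. Its groups overlapped, and its log2 fold change was -0.15 (SE 0.12). Without control library 1, the highest, it was -0.04.

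CDS1 took a larger part of the CDP-diacylglycerol synthase mRNA of the endoplasmic reticulum after depletion. Per kilobase of annotated exon, CDS1 made up 21.5%, 22.3% and 19.97% of CDS1 plus CDS2 in control and 45.7%, 43.7% and 47.5% in E4F1 shRNA libraries. The summed level per kilobase was 5.82 ± 0.106 CPM per kb in control and 7.64 ± 0.111 CPM per kb after depletion (SD, n = 3 each). Both quantities separated the groups without overlap. The percentages and the size of the rise in the sum depend on the annotated exon lengths, 4461 bases for CDS1 and 11893 for CDS2. In CPM, without division by length, CDS2 stayed well above CDS1 in both groups. Its means were 54.5 CPM in control and 49.4 CPM after depletion, against 5.53 and 15.55 CPM for CDS1. By that measure CDS1 is a smaller part of the sum, and the sum rises by less.

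The upstream sequences of CDS1, CDS2 and CRLS1 are shown because the paralogues differed in their response and CRLS1 went the other way. They are the 250 bases before the RefSeq gene start (GRCh38.p14), 5′ to 3′ on the gene's strand, with each CpG in capitals: chr4:84582877-84583126 for CDS1, chr20:5126758-5127007 for CDS2 and chr20:6006999-6007248 for CRLS1, all plus strand.
CDS1: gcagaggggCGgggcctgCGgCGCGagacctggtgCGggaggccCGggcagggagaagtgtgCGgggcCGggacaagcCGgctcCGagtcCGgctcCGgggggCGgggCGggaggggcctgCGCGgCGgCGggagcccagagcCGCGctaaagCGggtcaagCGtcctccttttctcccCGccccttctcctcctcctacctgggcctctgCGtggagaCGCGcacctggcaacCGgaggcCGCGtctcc
CDS2: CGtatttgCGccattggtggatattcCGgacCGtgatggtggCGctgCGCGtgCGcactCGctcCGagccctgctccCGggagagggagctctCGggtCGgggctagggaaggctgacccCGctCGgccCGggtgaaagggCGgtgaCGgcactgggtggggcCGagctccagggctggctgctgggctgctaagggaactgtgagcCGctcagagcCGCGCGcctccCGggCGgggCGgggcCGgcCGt
CRLS1: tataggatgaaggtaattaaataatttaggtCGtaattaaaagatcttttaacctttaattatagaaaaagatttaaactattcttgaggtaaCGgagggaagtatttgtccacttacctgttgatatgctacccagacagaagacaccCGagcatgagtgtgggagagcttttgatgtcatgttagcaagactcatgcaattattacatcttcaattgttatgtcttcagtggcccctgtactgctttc

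CDS1 and CDS2 thus share a CpG-dense start, with 29 and 28 CpGs in 250 bases, against a median of 11 over 35116 promoters of the same table. CRLS1 had 3 CpGs and 36.0% G and C, where the median is 58.0%. Its RefSeq window begins 909 bases inside the gene as GENCODE release 29 draws it, so it lies before a later start and not before the first one. The CDS1 and CDS2 windows also run into those genes as GENCODE draws them, from 84582979 and 5126786. So do the windows of PGS1, PTPMT1, TAMM41, LCLAT1, PRELID1 and TRIAP1. That of PTPMT1 ends at 47565598, and the gene starts at 47565430. An entry was found for 9 of the 10 genes, all but TAFAZZIN, and the 8 genes other than CRLS1 held 22 to 31 CpGs and 59.6% to 76.0% G and C.

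The same windows with the first 50 transcribed bases were searched on both strands for TGACGT, the core of the ATF-like sites that E4F1 is known to bind. None of the 9 held it, nor the longer TGACGTCA and TGACGTAA that contain it. TAFAZZIN had no window to search, and the CRLS1 window does not cover the first GENCODE start of that gene. Of all 35116 promoters, 7.98% held TGACGT, 1.85% TGACGTCA and 0.416% TGACGTAA. CCAAT was found in 2 of 9, CDS2 (position -238, reverse strand) and LCLAT1 (position -31), with the first transcribed base as 0, and in 34.6% of all promoters. CACGTG, the E-box, was found in PTPMT1 (position -242) and PRELID1 (position -55) and in 7.26% of all promoters. No match means only that these letters are absent from the window.

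CDS2 was the one gene of the 10 with the heptamer CTTATCT in an annotated 3' untranslated region, shown in capitals in these 29 bases at chr20:5194333-5194361, plus strand.
CDS2 site: cacgaaggattCTTATCTcagggctctgc

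Of the 1643 tested genes that hold it 37.4% rose, against 13.7% of the 11446 genes without it. Falls made up 8.28% of the genes with it and 16.5% of those without it. These shares come from this same comparison, and genes were not matched for the length of the 3' untranslated region. It is not recorded whether the heptamer was picked with earlier results of these data known. The shares are therefore a description and no independent evidence. Why the shares differ was not tested. CDS2 itself, at -0.14, did not rise, and CDS1, which did, lacks the heptamer. In the 4 lists of related genes described further on, 5 tested genes hold it. GPAM, a mitochondrial glycerol-3-phosphate acyltransferase gene, rose by 0.23 (edgeR adjusted p = 0.046) and HADHB by 0.20 (0.00795), while LPGAT1, YME1L1 and SELENOI, at 0.02, 0.08 and 0.05, did not pass. GPAM lost its call with DESeq2 (adjusted p = 0.0851), with all low counts kept (0.0507), and with control library 3 (0.201) or any of the 3 E4F1 shRNA libraries (0.0846 to 0.123) left out.

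PGS1 and CRLS1, the enzymes on either side of phosphatidylglycerol, both fell, but to different extents. PGS1 (ENSG00000087157.18, chromosome 17, 78378640 to 78425114, plus strand) had 33.3, 32.7 and 32.4 CPM in control and 25.3, 26.9 and 26.3 CPM in E4F1 shRNA libraries. The spread within a group was small beside the gap between groups. Its log2 fold change was -0.32 (SE 0.07), with means of 32.8 ± 0.432 and 26.2 ± 0.786 CPM (SD, n = 3 each).

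CRLS1 (ENSG00000088766.11, chromosome 20, 6006090 to 6040053, plus strand) had 35.9, 36.3 and 35.2 CPM in control and 10.9, 11.8 and 12.1 CPM in E4F1 shRNA libraries. No control library came near a depleted one. The means were 35.8 ± 0.552 and 11.6 ± 0.664 CPM (SD, n = 3 each), 3.09-fold lower, with a log2 fold change of -1.63 (SE 0.08). Per kilobase, CRLS1 stood at 0.999, 1.03 and 1.01 times PGS1 in control and at 0.396, 0.405 and 0.427 times PGS1 in E4F1 shRNA libraries. By this measure, which rests on the annotated exon lengths, the 2 genes were level in control cells and no longer so after depletion. Only the fall of the ratio between groups does not depend on those lengths.

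PTPMT1, the phosphatase between them (ENSG00000110536.13, chromosome 11, 47565430 to 47573461, plus strand), had 12.2, 14.0 and 13.9 CPM in control and 15.0, 16.3 and 15.5 CPM in E4F1 shRNA libraries. The groups did not overlap, but the log2 fold change of 0.22 (SE 0.10) did not pass the threshold. Of its 2740 annotated exon bases, 721 are shared on the same strand with NDUFS3, a complex I subunit gene, and reads there count for neither gene. NDUFS3 itself rose (log2 fold change 1.17, SE 0.08, edgeR adjusted p = 1.28e-08). How far this sharing bears on the PTPMT1 value was not tested.

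Reads on the opposite strand of CRLS1 moved the other way from the gene itself. This was looked at after the counts had been seen, in the column of reads antisense to each gene, which took no part in choosing the 10 genes. CRLS1 had 23, 28 and 19 antisense reads in control and 74, 82 and 92 in E4F1 shRNA libraries, against 537, 587 and 548 and then 174, 198 and 199 sense reads. Antisense reads were 4.11%, 4.55% and 3.35% of both strands in control and 29.8%, 29.3% and 31.6% after depletion. In a fit of that column over its 8648 genes with enough reads, CRLS1 antisense reads rose by 1.71 on the log2 scale (SE 0.21, edgeR adjusted p = 6.52e-13, 3 of 3 depleted libraries above all controls), where 1.54% of genes rose.

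No annotated gene overlaps CRLS1 on the opposite strand. The nearest one beyond its end is LRRN4, which runs toward CRLS1 and ends 724 bases away. LRRN4 had 28, 50 and 37 reads in control and 48, 52 and 83 in E4F1 shRNA libraries (log2 fold change 0.59, SE 0.24, edgeR adjusted p = 0.0689), and these groups overlapped. The source of the antisense reads was not tested. Counted without regard to strand, the CRLS1 log2 fold change was -1.17, against -1.63 with strand.

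**Figure D2:**
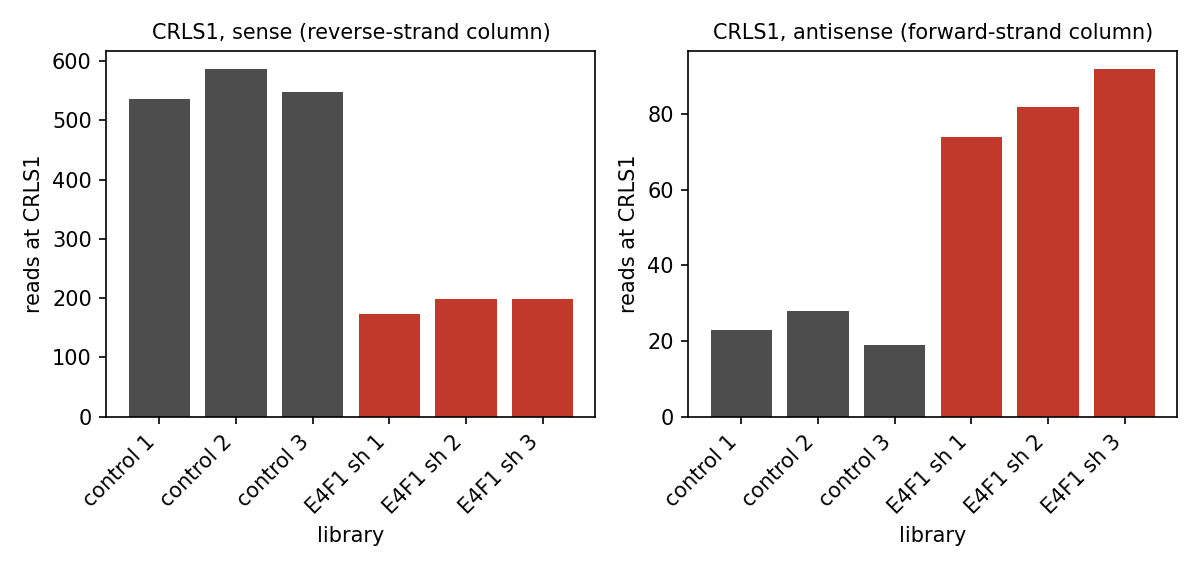
Reads at CRLS1 in each library, sense on the left and antisense on the right, as bars from 0 on separate axes, with control in grey and E4F1 shRNA in red. Sense reads are at 537 to 587 in control and 174 to 199 after depletion, and antisense reads at 19 to 28 and 74 to 92.

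Antisense reads at the other genes were few or lay where an annotated gene overlaps. PTPMT1, which CELF1 and KBTBD4 overlap on that strand, had between 308 and 364 in controls and between 322 and 381 after depletion. The other 8 genes had 0 to 39 antisense reads per library. Besides CRLS1, PTPMT1 and PRELID1 had enough reads to be tested, and neither passed (edgeR adjusted p = 0.931 and 0.703).

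TAFAZZIN, the main remodelling enzyme, had the largest change of the 10 genes. The gene (ENSG00000102125.15, chromosome X, 154411518 to 154421726, plus strand) had 145, 220 and 173 reads in control and 16, 11 and 14 reads in E4F1 shRNA libraries. In CPM these were 9.70, 13.6 and 11.1 against 0.998, 0.654 and 0.854. All depleted libraries were under 1 CPM, and control library 2 was the highest of the controls. The means were 11.5 ± 1.98 and 0.836 ± 0.173 CPM (SD, n = 3 each), 13.7-fold lower, with a log2 fold change of -3.77 (SE 0.20).

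LCLAT1, the other acyltransferase (ENSG00000172954.13, chromosome 2, 30447226 to 30644225, plus strand), had 49.6, 45.6 and 48.6 CPM in control and 39.9, 40.7 and 39.5 CPM in E4F1 shRNA libraries. It fell by 0.26 on the log2 scale (SE 0.06), and its groups did not overlap. Per kilobase of exon, TAFAZZIN stood at 0.311, 0.475 and 0.364 times LCLAT1 in control and at 0.0398, 0.0256 and 0.0345 times LCLAT1 after depletion.

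Among the 10 cardiolipin genes, those of lipid transfer showed no change past the threshold. PRELID1, which binds phosphatidic acid (ENSG00000169230.9, chromosome 5, 177303774 to 177306959, plus strand), had 122, 130 and 131 CPM in control and 128, 130 and 120 CPM in E4F1 shRNA libraries (log2 fold change -0.02, SE 0.06). TRIAP1, its partner in the complex (ENSG00000170855.3, chromosome 12, 120443961 to 120446412, minus strand), had 68.0, 58.5 and 69.2 CPM in control and 62.8, 59.8 and 56.4 CPM in E4F1 shRNA libraries (log2 fold change -0.13, SE 0.07). The groups overlapped for both genes. Without control library 2, TRIAP1 passed, at -0.19 (edgeR adjusted p = 0.0227), and PRELID1 stood at 0.001. TRIAP1 stood at -0.08 with control library 1, control library 3 or the third E4F1 shRNA library left out.

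Levels compared between genes, as CPM per kilobase of annotated exon, put the transfer genes far above the enzymes. In control cells the order was PRELID1 (68.2 CPM per kb), TRIAP1 (45.2), CRLS1 (6.67), PGS1 (6.60), LCLAT1 (6.38), PTPMT1 (4.89), CDS2 (4.58), TAFAZZIN (2.43), TAMM41 (1.81) and CDS1 (1.24 CPM per kb). The libraries of neighbours in this order overlapped for CRLS1 and PGS1, PGS1 and LCLAT1, PTPMT1 and CDS2, and TAFAZZIN and TAMM41, so these pairs are not ordered beyond their spread. After depletion TAFAZZIN was the lowest (0.177 CPM per kb), CRLS1 stood at 2.16 and CDS1 at 3.49 CPM per kb, between CRLS1 and CDS2 (4.15). Only LCLAT1 (5.33) and PGS1 (5.27 CPM per kb) overlapped as neighbours in that group. Exon lengths are the union over all annotated transcripts, so genes with long unused exons are set too low. For PTPMT1 they include the bases shared with NDUFS3, where no read is counted. Over its 2019 unshared exon bases PTPMT1 stood at 6.63 CPM per kb in control and 7.72 CPM per kb after depletion. Its control libraries, at 6.06, 6.96 and 6.88 CPM per kb, then overlapped those of CRLS1, PGS1 and LCLAT1, so its place below these 3 genes rests on the length used. In CPM, without division by length, control means were 128 for PRELID1, 65.2 for TRIAP1, 54.5 for CDS2 and 47.9 for LCLAT1. The wide gap between TRIAP1 and these enzymes thus rests on the lengths as well.

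**Figure D3:**
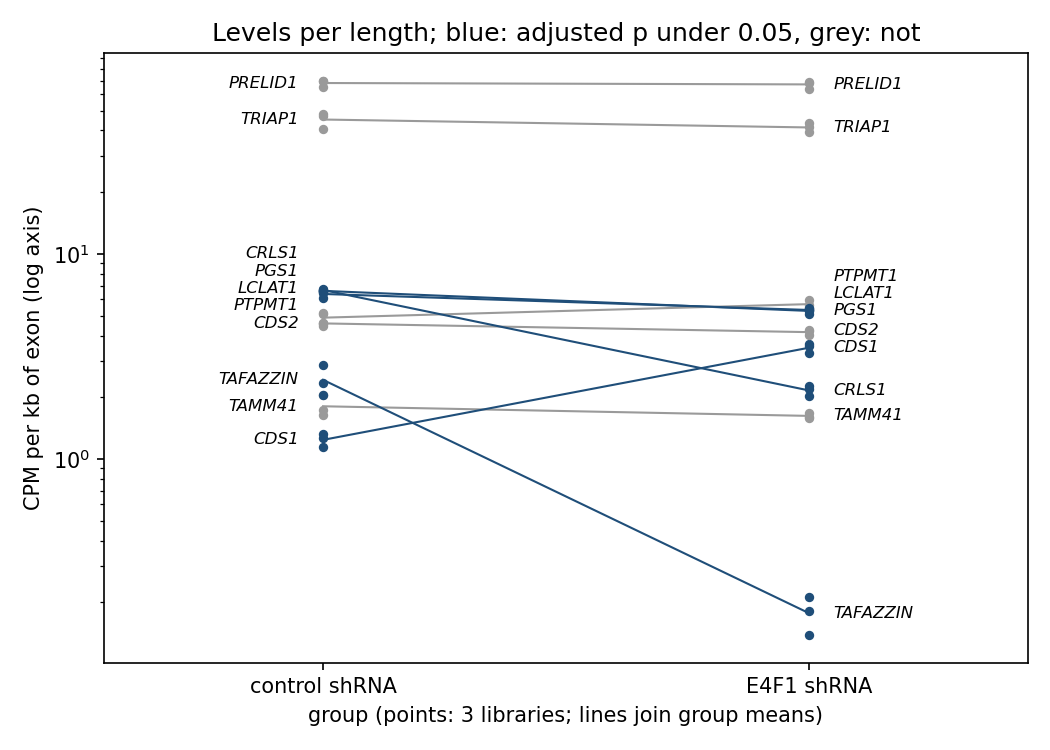
CPM per kilobase of exon on a log axis, for control shRNA on the left and E4F1 shRNA on the right. Points are libraries and lines join group means, blue for genes past the threshold. CRLS1 goes from 6.67 to 2.16 and CDS1 from 1.24 to 3.49 CPM per kb, so their lines cross, and TAFAZZIN ends at 0.177.

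The genes whose levels ran most like TAFAZZIN over the 6 libraries, among 10082 well expressed protein-coding genes, were WDR7 (Pearson r 0.9977 on log2 CPM), KIFBP (0.9967) and SUMF1 (0.9962). Those most like CDS1, among 10081, were GPAT3 (0.9992), MAP3K1 (0.9985) and UQCRQ (0.9979). These are descriptions over 6 libraries in 2 groups, and any gene that differs between the groups with little spread scores high.

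Genes that start beside a cardiolipin gene on the opposite strand were taken by position alone, within 1000 bases of its start. There were 6, of which 5 could be tested: 2 rose and 2 fell, where 28.9% of all genes did either. DNASE1L1, a DNase gene whose start lies 594 bases inside TAFAZZIN, had 529, 486 and 590 reads in control and 303, 304 and 318 in E4F1 shRNA libraries. Its level went from 34.5 ± 4.01 to 18.8 ± 0.668 CPM (SD, n = 3 each), without overlap of the groups. It fell by 0.87 on the log2 scale (SE 0.09, edgeR adjusted p = 2.25e-06), in the same direction as TAFAZZIN and by less.

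In the other 4 tested pairs, the cardiolipin gene did not pass the threshold. PCNA, the replication clamp gene 160 bases from CDS2, rose (log2 fold change 0.26, SE 0.06, edgeR adjusted p = 0.0025), and GATC, 26 bases from TRIAP1, rose by 0.21 (0.0189). CELF1, an RNA-binding protein gene that overlaps the start of PTPMT1 by 139 bases, fell by 0.24 (0.00382). RAB24, beside PRELID1, had a log2 fold change of -0.08 (SE 0.33), which ran from -0.62 to 0.18 with any 1 library left out, and MCM8-AS1, 269 bases from CRLS1, had 1 read in all and was not tested. GATC lost its call with control library 3 (edgeR adjusted p = 0.0729) or the second E4F1 shRNA library (0.0658) left out. CDS2 and CRLS1 lie on the same strand of chromosome 20, 808202 bases apart, and MCM8, upstream of CRLS1, rose by 0.21 (edgeR adjusted p = 0.0221).

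**Figure D4:**
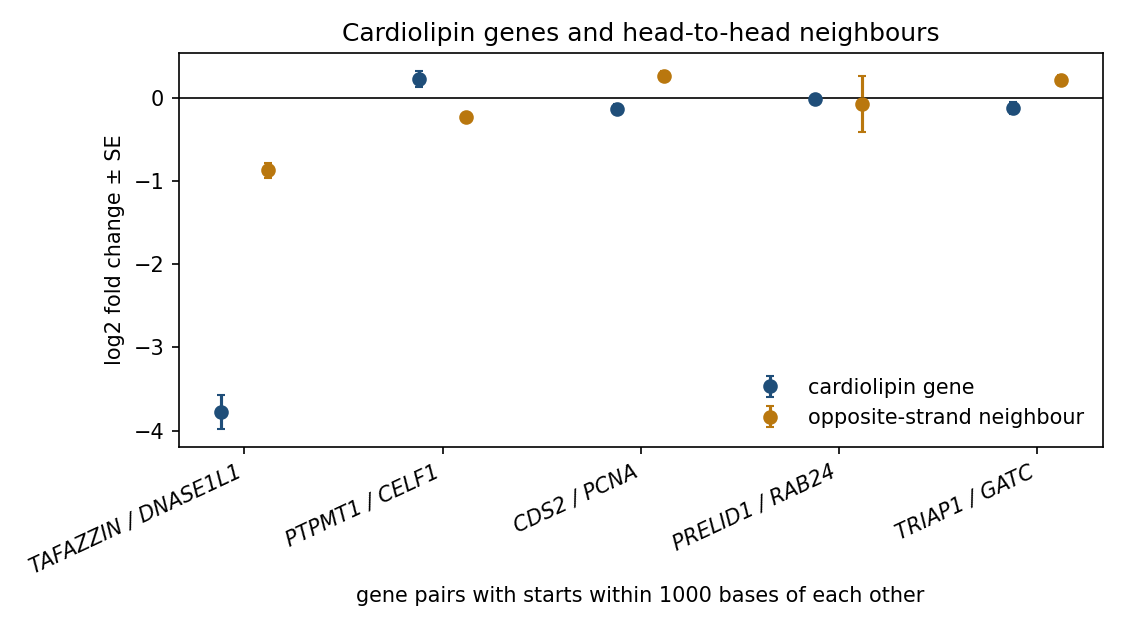
Log2 fold changes with SE for 5 cardiolipin genes (blue) and the tested neighbour that starts within 1000 bases on the opposite strand (orange). TAFAZZIN and DNASE1L1 are both below 0, at -3.77 and -0.87, and no other pair has both genes past the threshold.

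Genes around the pathway were read from 4 lists drawn up from general knowledge with results of this comparison known, so their counts and p-values describe the lists and are no independent evidence. Over all genes tested, 14.4% rose, 14.4% fell and 28.9% did either, and no difference between a list and this background was tested. Of 17 tested genes of phosphatidic acid supply and use, 4 rose and 4 fell, against 14.4% of all genes in each direction, with a median log2 fold change of -0.019. GPAT3, a glycerol-3-phosphate acyltransferase of the endoplasmic reticulum, had 21.1, 21.3 and 19.9 CPM in control and 37.0, 36.9 and 38.3 CPM in E4F1 shRNA libraries (log2 fold change 0.85, SE 0.07, edgeR adjusted p = 3.05e-07). Its groups were far apart beside their spread. GPAT2, a low gene of the same family, fell from 2.01 to 1.03 CPM. Its log2 fold change of -0.95 (edgeR adjusted p = 0.0102) was the lowest of this list. AGK, a mitochondrial acylglycerol kinase, rose by 0.28, while the diacylglycerol kinase gene DGKA fell by 0.66 and the lipin gene LPIN3, a phosphatidic acid phosphatase, fell by 0.65. With control library 3 left out, or the second or the third library with E4F1 shRNA, 2 of these genes rose, and without the first or with DESeq2, 2 fell.

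Of 12 tested genes of further cardiolipin and phosphatidylglycerol turnover and lipid transfer, 5 rose and 1 fell, against 14.4% of all genes in each direction, with a median of 0.15. STARD7, a phosphatidylcholine transfer protein gene, had 200.2, 221 and 194 CPM in control and 269.8, 276 and 270.2 CPM in E4F1 shRNA libraries (log2 fold change 0.41, SE 0.06, edgeR adjusted p = 4.58e-05). SERAC1, needed for phosphatidylglycerol remodelling, rose by 0.39 and HADHB, the beta subunit of the mitochondrial trifunctional protein, by 0.20. HADHA, the gene of its alpha subunit, had a log2 fold change of -0.09 and did not pass (edgeR adjusted p = 0.219). The HADHA groups did not overlap. PRELID3A had the largest rise of the list, at 0.46 (edgeR adjusted p = 0.0217). PLA2G6, a phospholipase A2 gene, fell by 0.59 (edgeR adjusted p = 0.00144). With control library 3 or the first library with E4F1 shRNA left out, 3 of these genes rose, and without control library 2, 2 fell.

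The list of proteins that bind cardiolipin or shape the cristae, which also holds the outer membrane proteins SAMM50, MTX1 and MTX2, had 17 tested genes. Of these 1 rose and 2 fell, where 28.9% of all genes did either, with a median of -0.0043. DNAJC19, a prohibitin-associated protein gene whose loss disturbs cardiolipin remodelling, had the largest change among the 17. It had 20.5, 24.2 and 19.03 CPM in control and 10.6, 9.10 and 8.18 CPM in E4F1 shRNA libraries (log2 fold change -1.19, SE 0.12, edgeR adjusted p = 1.30e-06). Every depleted library was below every control.

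The prohibitin gene PHB1 fell by 0.16 (edgeR adjusted p = 0.0284) and the protease gene OMA1 rose by 0.34 (0.0484), with overlapping groups for OMA1. STOML2, a cardiolipin-binding stomatin-like protein gene, had a log2 fold change of -0.14 and did not pass (0.0641). The PHB1 call was lost without any 1 of 5 libraries, all but control library 2 (edgeR adjusted p from 0.0568 to 0.153), and OMA1 lost its call with control library 3 (0.199) or the first (0.198) or second (0.135) E4F1 shRNA library left out. Without control library 2, 2 genes of this list rose.

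Of 14 tested genes that make the other phospholipids, 1 rose and 3 fell, a share close to the 28.9% of all genes that did either, with a median of -0.055. CEPT1, the choline and ethanolamine phosphotransferase gene, had 40.3, 41.6 and 36.5 CPM in control and 20.4, 17.5 and 18.6 CPM in E4F1 shRNA libraries (log2 fold change -1.07, SE 0.08, edgeR adjusted p = 8.05e-08). The groups were far apart. CHPT1, a cholinephosphotransferase gene, rose by 0.26. PISD, which makes phosphatidylethanolamine inside mitochondria, fell by 0.28, and PTDSS2, a phosphatidylserine synthase gene, fell by 0.32 (edgeR adjusted p = 0.0237). This call was lost with DESeq2 (adjusted p = 0.0797), which left 2 falls in the list, and with control library 2 (0.0849) or the second (0.0583) or the third (0.0997) E4F1 shRNA library left out.

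**Figure D5:**
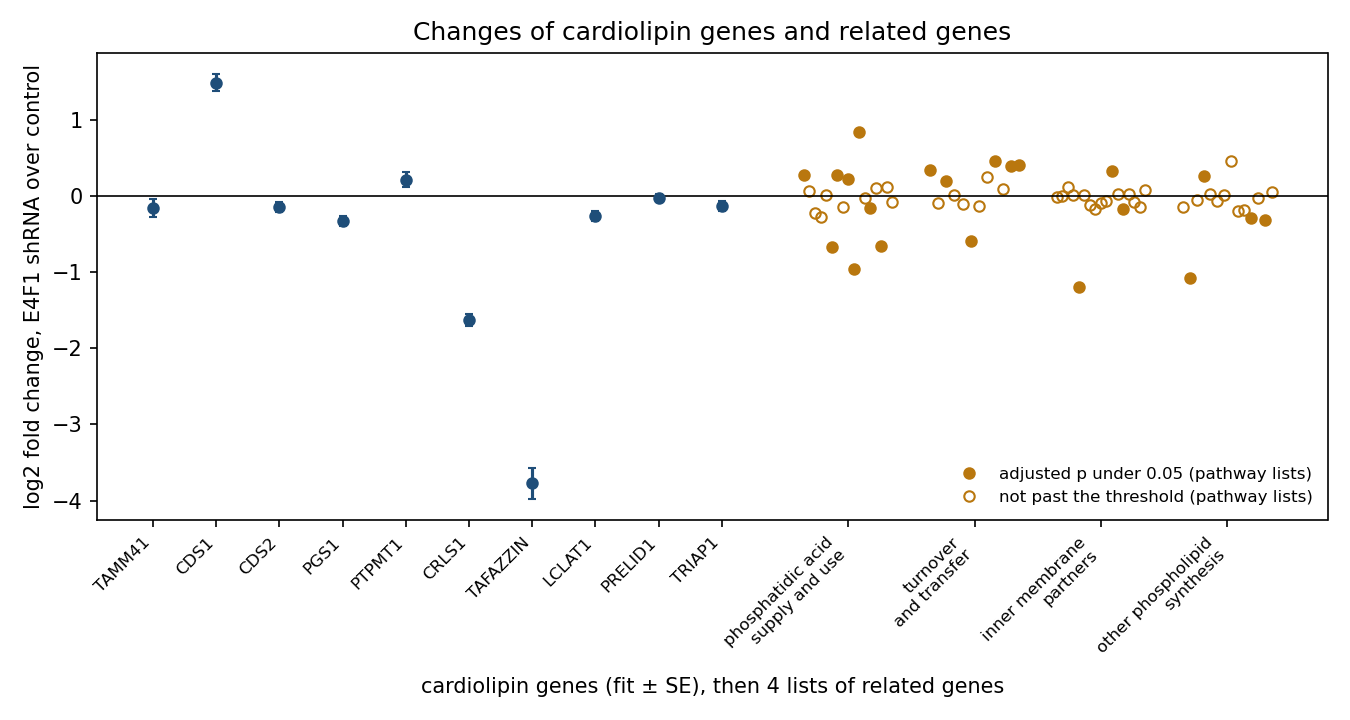
Log2 fold changes of the 10 cardiolipin genes with SE (blue) and of the tested genes of 4 related lists (orange, filled where the adjusted p is under 0.05). The vertical axis is E4F1 shRNA over control. TAFAZZIN at -3.77, CRLS1 at -1.63 and CDS1 at 1.49 lie outside the range of the lists, whose extremes are DNAJC19 at -1.19 and GPAT3 at 0.85.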

How the data were processed

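Polyadenylated RNA of 6 libraries was sequenced. The deposited tables hold raw read counts per gene in 3 columns (ignoring strand, forward, reverse). The authors used bcl2fastq 2.20, STAR 2.5.1b and build GRCh38, per the submitters' processing notes; no source used here gives the annotation release. The reverse column held most gene reads and was used; lines that name no gene held 27.1% to 31.7% of a table and stayed out. Of 58219 identifiers, 57881 matched GENCODE release 29 without the version number, the source of symbols and coordinates. Promoters are from RefSeq (GRCh38.p14).

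Counts were fitted with edgeR 4.0.16 (filterByExpr, TMM, quasi-likelihood F-test, two-sided, group as the only term) and p-values adjusted by Benjamini-Hochberg over all genes tested. CPM are TMM-scaled, and SE is the log2 fold change divided by the square root of F. The p-values measure the spread between 3 libraries per group. The sample titles give replicate numbers only, so they do not show whether these libraries came from separate infections. Other settings were DESeq2 1.42.0, limma-voom (limma 3.58.1), other scalings and filters, a replicate block, leaving out each library, and counts ignoring strand. The fit of the forward column was added after the data had been seen. On simulated counts over 15765 genes, 48% of genes changed 1.25-fold and 100% of those changed 3-fold were recovered (50 of each), and 14 unchanged genes were called. Far fewer genes were changed in the simulation than the 28.9% called in the data. These shares therefore do not give the recovery in the real comparison.

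The 10 genes and all lists were chosen with earlier results of these data known. Named are the 10 genes, E4F1, up to 4 genes per list with the smallest adjusted p, every head-to-head neighbour, and the 3 well expressed protein-coding genes (average log2 CPM of at least 3) most like the largest fall and the largest rise. NDUFS3, LRRN4, MCM8, KBTBD4, SAMM50, MTX1, MTX2, GPAM, GPAT2, LPGAT1, HADHA, PRELID3A, YME1L1 and SELENOI were named after their values or positions were seen. Related genes too low to test were AGPAT3, PLD6, PLSCR3, CKMT1A, CKMT1B and CHKB. A further list of cell type markers is not reported here.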

Additional observations from a re-analysis of the deposited data

Results flagged for a closer look

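Reads antisense to CRLS1 lie in a column that the comparison of gene levels does not use, and they were more numerous in all 3 E4F1 shRNA libraries (74, 82 and 92) than in the controls (23, 28 and 19). The log2 fold change on that column was 1.71, or 1.709 before rounding (edgeR adjusted p = 6.52e-13). With DESeq2 it was 1.73, and without any 1 library it ranged from 1.63 to 1.81. What these reads come from was not tested.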

How the results depend on the processing

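In 14 other settings the 5 calls among the cardiolipin genes kept their direction and stayed past the threshold, with TAFAZZIN between -3.91 and -3.62, CRLS1 between -1.66 and -1.17, CDS1 between 1.43 and 1.55, PGS1 between -0.34 and -0.29 and LCLAT1 between -0.29 and -0.22. E4F1 kept its call throughout. Of 499 values of single genes under other settings, 467 kept their direction and side of the threshold, 24 lost it, 1 gained it and 7 changed sign. The changes of sign were PRELID1, at 0.017 without E4F1 shRNA library 3 and 0.001 without control library 2, and RAB24, at 0.183, 0.087 and 0.171 without E4F1 shRNA library 1, E4F1 shRNA library 2 and control library 1, LPGAT1, at -0.014 without control library 3, and SELENOI, at -0.009 without control library 2. With each library left out in turn PRELID1 ranged from -0.043 to 0.017, RAB24 from -0.62 to 0.183, LPGAT1 from -0.014 to 0.048 and SELENOI from -0.009 to 0.125. None of these passed the threshold.

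Leaving out each library in turn, rises and falls numbered 1605 to 2833 and 1419 to 2537 over all genes, 1 to 1 and 4 to 5 among cardiolipin genes, 2 to 4 and 2 to 5 in phosphatidic acid supply, 3 to 4 and 1 to 2 in turnover, 0 to 2 and 1 to 2 in the cardiolipin-binding list, 1 to 1 and 2 to 3 among genes of other phospholipids, and 1 to 2 and 2 to 2 among neighbours. In the cardiolipin-binding list, rises numbered 0 with DESeq2, limma-voom or at least 1 CPM in 3 libraries, and falls 1 without a low-count filter. With DESeq2, falls numbered 2 in phosphatidic acid supply and 2 among genes of other phospholipids. The cause was not tested, beyond the fewer samples of the fits without a library.

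The main fit did not pair libraries, and the labels do not say whether same-numbered libraries were handled together. Deviations of same-numbered libraries from their group means correlated at 0.00704, 0.0471 and 0.0477 over 15765 genes. Not every library correlated best with its own number. With 3 libraries per group, these values cannot show that pairing was absent. With the replicate block 2419 genes rose and 2446 fell, 1 cardiolipin gene rose and 4 fell, and E4F1 had a log2 fold change of -2.56. Among the 10 cardiolipin genes TAFAZZIN had the fewest reads, at 11 to 16 per depleted library.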
